A study of Mus musculus with 6 samples.

Results

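The genes described here encode the nuclear subunits of the mitochondrial respiratory chain and of ATP synthase, with cytochrome c and the assembly factors that carry the same gene names. They were taken by gene symbol alone: symbols beginning with NDUF, UQCR, COX4 to COX8, ATP5F1, ATP5M or ATP5P, the symbols SDHA to SDHD, and CYC1 and CYCS. This rule found 109 of the 20323 rows of the gene table. Of these rows, 86 are structural subunits: 37 of complex I, 4 of complex II, 10 of complex III, 17 of complex IV and 18 of complex V. A further 8 rows are the NDUFAF assembly factors of complex I, 2 are NDUFA4 and its paralog NDUFA4L2, and 1 is CYCS. The other 12 rows repeat a member's symbol under another gene identifier or are readthrough transcripts that join a member to its neighbour, and they are given apart from the subunits.

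Complexes I and II pass electrons from NADH and succinate to ubiquinone, complex III passes them on to cytochrome c, and complex IV passes them from cytochrome c to oxygen. Complexes I, III and IV pump protons across the inner mitochondrial membrane, and complex V, the ATP synthase, uses the return of the protons to make ATP. The core of each complex except complex II includes subunits made from mitochondrial DNA, while the subunits described here are encoded in the nucleus. Kidney tubules are known for their dense mitochondria, and fibroblasts are the cells that lay down matrix in fibrosis.

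All 6 libraries are RNA from RFB, labelled as a kidney fibroblast cell line, and every library received TGF-β, the cytokine that drives fibroblasts toward matrix production. In 3 libraries the chemokine CXCL10 was added to TGF-β, and the titles carry 5 µl with no concentration. The other 3 libraries received TGF-β alone, so no library shows the cells without TGF-β. The series' design text speaks of a knockdown of SUV39H1, which the labels of these libraries do not name, and nothing in them says whether replicates were separate cultures, so p-values measure only the spread between these libraries. Although the labels name mouse, all 20323 gene identifiers are human, so that gene names and roles here are those of the human genes.

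The libraries held between 12838106 and 15587409 counts, and 3 counts, the limit that a count of 0 allows, came to between 0.187 and 0.237 CPM, a count scaled to the size of its library. Intervals and limits of this kind cover counting error only. Fibroblast markers were detected in all libraries (9 of 9 genes), with a summed level of 50434 to 54756 CPM with TGF-β + CXCL10 and 52787 to 60268 CPM with TGF-β. Markers of kidney epithelium summed to 3166 to 3429 CPM with TGF-β + CXCL10 and 2948 to 3435 CPM with TGF-β, nearly all of it KRT8 and KRT18, with CDH16 at 0 in every library and 5 of 6 genes detected. Endothelial markers (2 of 4 detected in every library) summed to 3.02 to 3.15 CPM with TGF-β + CXCL10 and 2.55 to 3.17 CPM with TGF-β. Leukocyte markers (3 of 4 detected, ADGRE1 at 0) summed to 39.3 to 45.5 CPM with TGF-β + CXCL10 and 37.6 to 43.7 CPM with TGF-β, nearly all of it CD68. In bulk RNA such as this, fewer cells of a type and less RNA per cell cannot be told apart.

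Of the 109 rows, 96 had enough counts to be tested: 78 of the 86 structural subunits, the 8 assembly factors, both NDUFA4 genes, CYCS and 7 of the 12 further rows. The untested subunits were mostly isoforms of complex IV known from other tissues. COX4I2 (a lung isoform), COX6A2 (a heart and muscle isoform), COX7B2, COX8C and the complex V gene ATP5MGL had 0 counts in every library, as had 3 of the further rows. COX7A1, the heart and muscle isoform of COX7A, had 3, 1 and 2 counts in TGF-β + CXCL10 replicates 1 to 3, against 10, 12 and 6 counts in TGF-β replicates 1 to 3. Its groups did not overlap, but at this depth the log2 difference fitted without the filter on low counts, -2.03, did not pass the test (edgeR adjusted p = 0.220, and 0.240 with replicates paired). COX6B2, the testis isoform of COX6B, had at most 3 counts in any library, and the retrocopy UQCRHL at most 4.

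Levels were compared between genes per transcript length, as FPKM, which scales fragments by transcript length and library depth, averaged over the 6 libraries. ATP5F1B and ATP5F1A, the catalytic beta subunit and its alpha partner in ATP synthase, stood highest at 215 and 150 FPKM. Next came COX6A1 and COX4I1, nuclear subunits of complex IV, both at 134 FPKM, and then UQCRC1, a core subunit of complex III, at 90.0 FPKM. Leaving out the further rows, the lowest tested genes were the assembly factor NDUFAF4 at 2.10 FPKM, the accessory subunit NDUFA9 at 2.31 FPKM, whose implied length varied between libraries, and the assembly factor NDUFAF5 at 2.34 FPKM. The median tested subunit had 30.0 FPKM in complex I, 39.2 FPKM in complex II, 31.0 FPKM in complex III, 48.3 FPKM in complex IV and 45.5 FPKM in complex V. The assembly factors of complex I had a median of 4.94 FPKM, beside 8.01 FPKM for all 11970 genes tested. Factors and subunits overlapped in range: NDUFAF3 had 22.4 FPKM and NDUFAF2 18.3 FPKM, above subunits such as NDUFS3 at 17.3 FPKM.

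**Figure D1:**
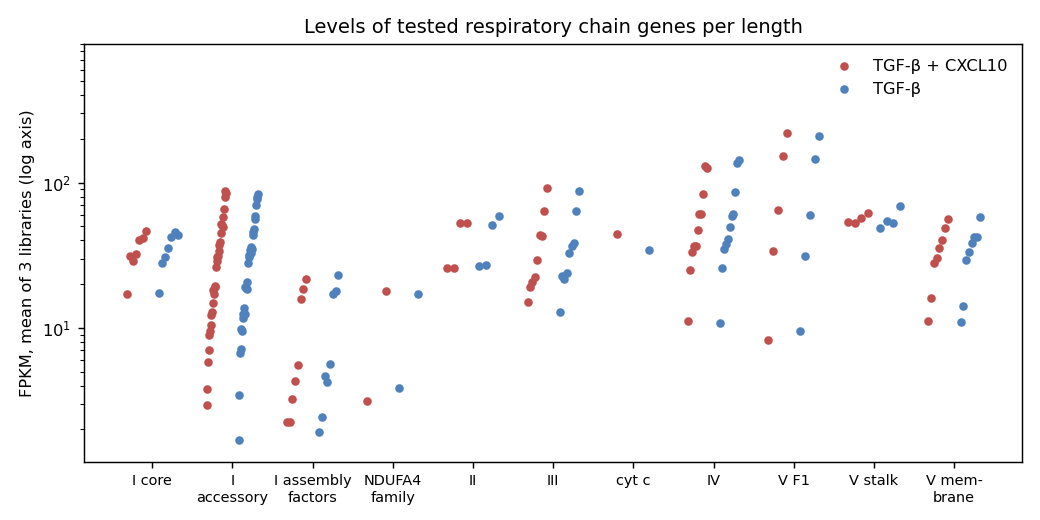
Level of each tested gene by role, in FPKM on a log axis. Each point is 1 gene, averaged over the 3 TGF-β + CXCL10 libraries (red) or the 3 TGF-β libraries (blue). In both groups the assembly factors overlap with the lower subunits, and ATP5F1B and ATP5F1A stand highest.

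Differences between the TGF-β + CXCL10 and TGF-β libraries were mostly small in these genes and lay in both directions. Without pairing of the replicates, edgeR called 0 of the 96 tested members at an adjusted p below 0.05, and 0 of all 11970 genes tested (0%). At an unadjusted p below 0.05 there were 8 members (8.33%), against 2449 of all genes (20.5%). DESeq2 without pairing called 0 of 93 members, against 158 genes higher (1.43%) and 156 lower (1.41%) of 11041 with an adjusted p.

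The libraries carry replicate numbers. Libraries with the same number deviated from their group means together, most clearly for number 1 (correlation 0.330). For numbers 2 and 3 the correlations were 0.121 and 0.163, not far above the 0.0803 and 0.0825 found on crossing them. A paired fit with the number as a block was run as well. The labels do not say what the number marks. In that fit 5 members were higher with TGF-β + CXCL10 (5.21% of those tested, against 9.71% of all genes) and 2 were lower (2.08%, against 8.04% of all genes). Over all genes this was 1162 higher and 962 lower, and with library totals 877 higher and 1359 lower, of which 4 and 2 were members. The higher ones were CYCS, CYC1, UQCRFS1, ATP5MC3 and NDUFA7. The lower ones were both further rows, a readthrough of NDUFC2 and a second row of NDUFA7, which reached the filter on low counts only through the TGF-β libraries, where they are high, so their calls are no support for a difference. DESeq2 with the block called 1 member higher, CYCS, and 0 lower, against 6.09% of genes higher and 4.04% lower. With each of these tools, members were called no more often than genes at large. In the authors' deposited table, 0 of the 109 rows had an adjusted p below 0.05, against 209 of all 20323 rows.

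Across the complexes the medians lay close to 0. The median log2 difference, TGF-β + CXCL10 minus TGF-β, was 0.027 for the 37 tested subunits of complex I, -0.020 for the 4 of complex II, 0.062 for the 9 of complex III, -0.026 for the 11 of complex IV and 0.061 for the 17 of complex V, beside -0.0064 for all genes tested. Differences above 0 were found for 22 of 37 subunits in complex I, 1 of 4 in complex II, 6 of 9 in complex III, 3 of 11 in complex IV and 12 of 17 in complex V, and for 5827 of all 11970 genes. With library totals in place of TMM scaling these numbers were 17, 0, 6, 2 and 9 for complexes I to V and 4896 for all genes. In the paired fit, 1 subunit passed the threshold in complex I, 2 in complex III and 1 in complex V, all higher, and 0 in complexes II and IV. The medians with library totals were -0.016 for complex I, -0.065 for II, 0.019 for III, -0.068 for IV and 0.014 for V, beside -0.050 for all genes, so the sign for complex I turned while the order of the complexes was kept.

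**Figure D2:**
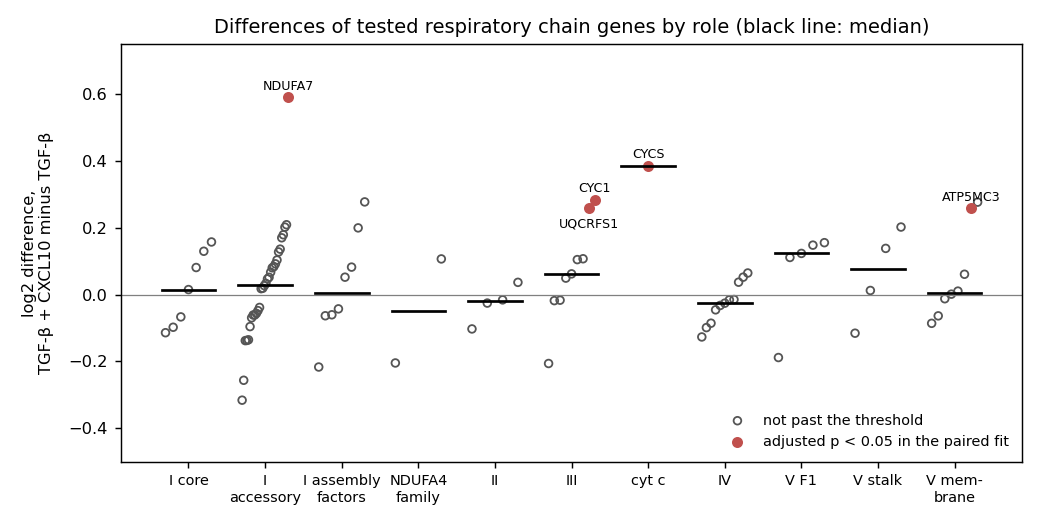
Log2 difference (TGF-β + CXCL10 minus TGF-β) of each tested gene by role, with black lines at the median. Filled points passed an adjusted p of 0.05 in the paired edgeR fit: CYCS, CYC1, UQCRFS1, ATP5MC3 and NDUFA7. The other points scatter on both sides of 0.

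CYCS, the soluble cytochrome c that carries electrons between complexes III and IV and that also triggers apoptosis when released, had 85.1, 71.8 and 72.7 CPM in TGF-β + CXCL10 replicates 1 to 3, against 72.8, 49.2 and 53.8 CPM in TGF-β replicates 1 to 3. The groups overlapped, because TGF-β replicate 1 lay just above TGF-β + CXCL10 replicates 2 and 3, but within each replicate number the TGF-β + CXCL10 library was higher. Its mean was 76.5 ± 7.43 CPM with TGF-β + CXCL10 and 58.6 ± 12.5 CPM with TGF-β (SD, n = 3 each). The log2 difference was 0.39 (SE 0.14) without pairing (edgeR adjusted p = 0.185) and 0.40 (SE 0.07) with pairing (edgeR adjusted p = 0.00192). All 9 paired settings tried, DESeq2 included, kept CYCS past the threshold, with adjusted p between 1.77e-07 and 0.0467, while 1 of 12 unpaired settings did, with adjusted p between 0.00265 and 0.534. That setting left out TGF-β replicate 1 and gave a log2 difference of 0.57.

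In complex III, the 2 subunits that passed the threshold in the paired fit both carry redox centres. CYC1, the haem-bearing cytochrome c1 that hands electrons to cytochrome c, had 59.8, 47.7 and 49.8 CPM in TGF-β + CXCL10 replicates 1 to 3, against 47.3, 42.0 and 39.8 CPM in TGF-β replicates 1 to 3. The groups did not overlap, though TGF-β + CXCL10 replicate 2 lay within 1 CPM of TGF-β replicate 1. The log2 difference of CYC1 was 0.28 (SE 0.11; edgeR adjusted p = 0.195) without pairing and 0.28 (SE 0.07; edgeR adjusted p = 0.0169) with it. The call was kept in 6 of 9 paired settings (adjusted p 0.00537 to 0.114), and lost without replicate 3, with DESeq2 and with limma fitted to FPKM.

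UQCRFS1, the Rieske iron-sulfur protein, had 49.99, 46.5 and 44.3 CPM in TGF-β + CXCL10 replicates 1 to 3, against 42.0, 37.4 and 38.4 CPM in TGF-β replicates 1 to 3. Its groups did not overlap either. The log2 difference was 0.26 (SE 0.09; edgeR adjusted p = 0.170) without pairing and 0.26 (SE 0.07; edgeR adjusted p = 0.0275) with it, and 4 of 9 paired settings kept the call (adjusted p 0.0149 to 0.189). The settings that lost it were the paired fits without replicate 2, without replicate 3, with library totals, with DESeq2 and with limma fitted to FPKM. UQCRC1, a core protein of the matrix side, had 151, 157 and 138 CPM in TGF-β + CXCL10 libraries and 147, 139 and 129 CPM in TGF-β libraries, a log2 difference of 0.10 (edgeR adjusted p = 0.444). UQCR10, a small membrane subunit, went the other way by value, with 16.5, 14.1 and 14.8 CPM in TGF-β + CXCL10 libraries and 19.2, 14.3 and 19.1 CPM in TGF-β libraries (log2 difference -0.21, edgeR adjusted p = 0.426). The groups of both genes overlapped.

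**Figure D3:**
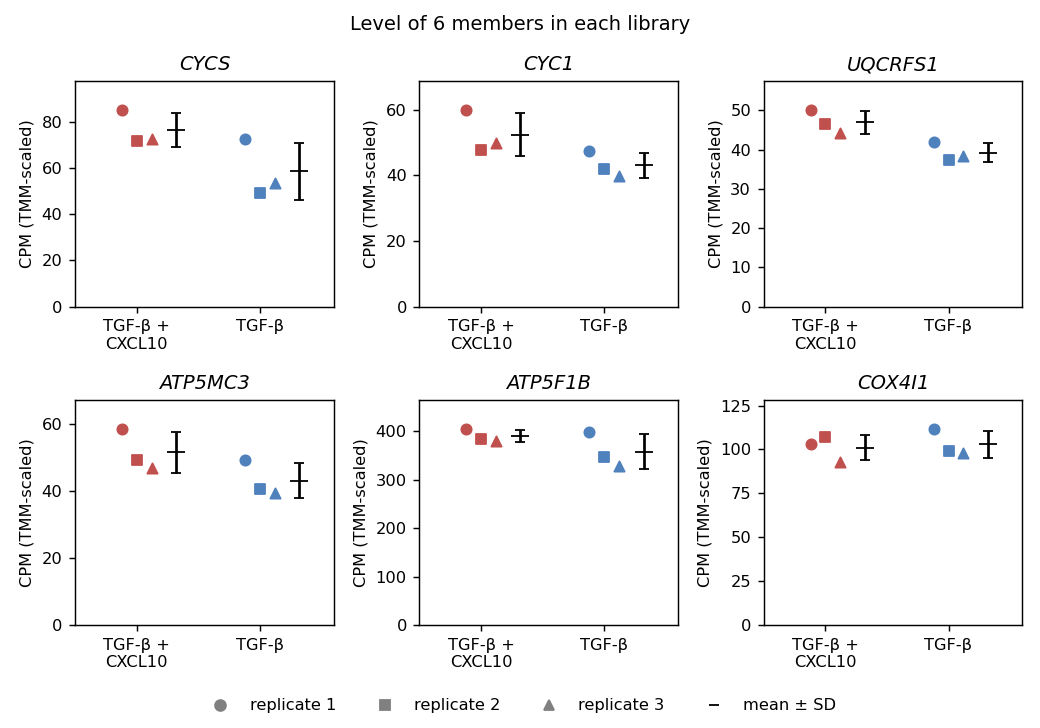
CPM of 6 members in each library, by replicate number, with the mean and SD of each group (n = 3 each). CYC1 and UQCRFS1 do not overlap between groups. For CYCS, ATP5MC3 and ATP5F1B, TGF-β replicate 1 lies within or at the edge of the TGF-β + CXCL10 libraries, and COX4I1 overlaps throughout.

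Complex I takes electrons from NADH through flavin and iron-sulfur centres in its core subunits, around which the accessory subunits are built. Of the 7 nuclear core subunits, 0 passed the threshold in either fit, and their median log2 difference was 0.015. NDUFS1, the large iron-sulfur core subunit, had 87.9, 85.7 and 88.8 CPM in TGF-β + CXCL10 libraries, against 81.6, 77.5 and 76.1 CPM in TGF-β libraries, with no overlap (log2 difference 0.16, SE 0.07; edgeR adjusted p = 0.222, paired 0.0811). The gap between the groups of NDUFS1 did not pass the test in either fit. The iron-sulfur subunits NDUFS8 and NDUFV2 overlapped between groups, with log2 differences of -0.10 and 0.13 (edgeR adjusted p = 0.617 and 0.562).

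Of the 30 accessory subunits, 1 passed the threshold in the paired fit, NDUFA7, described with its second row further on. NDUFA12 had 54.8, 50.1 and 44.8 CPM in TGF-β + CXCL10 libraries, against 52.0, 38.0 and 40.2 CPM in TGF-β libraries, with TGF-β replicate 1 inside the other group (log2 difference 0.20; edgeR adjusted p = 0.392, paired 0.0930). Without TGF-β replicate 1 its difference was 0.35 and passed the unpaired test (edgeR adjusted p = 0.0334, against 0.0334 to 0.773 over the 12 unpaired settings). NDUFB7, an accessory subunit on the intermembrane side, had 30.4, 27.0 and 26.7 CPM in TGF-β + CXCL10 libraries and 25.5, 24.5 and 22.8 CPM in TGF-β libraries, with no overlap (log2 difference 0.21, edgeR adjusted p = 0.261). NDUFS4, an accessory subunit mutated in Leigh syndrome, was the lowest of the tested subunits by log2 difference, at -0.32 (SE 0.12; edgeR adjusted p = 0.196, paired 0.117). It had 10.7, 10.5 and 9.59 CPM in TGF-β + CXCL10 libraries, against 12.5, 13.0 and 12.9 CPM in TGF-β libraries, and the groups were apart without passing either test.

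The assembly factors of complex I gave 0 calls among 8, with 4 differences above 0 and 4 below. NDUFAF4, which acts on the ubiquinone-binding module, had 6.82, 4.35 and 5.47 CPM in TGF-β + CXCL10 libraries and 4.65, 4.17 and 4.96 CPM in TGF-β libraries (log2 difference 0.28, edgeR adjusted p = 0.493). NDUFAF7, a methyltransferase of the mitochondrial matrix, had 4.50, 7.67 and 6.60 CPM in TGF-β + CXCL10 libraries and 7.47, 5.42 and 8.94 CPM in TGF-β libraries (log2 difference -0.22, edgeR adjusted p = 0.648). Both sets overlapped, as did those of NDUFAF2, which is replaced by NDUFA12 late in assembly, and of NDUFAF5, which hydroxylates NDUFS7, with log2 differences of 0.08 and 0.20 (edgeR adjusted p = 0.835 and 0.606). NDUFA4, now counted as a subunit of complex IV, is left out of the complex IV numbers given here. It had 17.9 ± 0.584 FPKM with TGF-β + CXCL10 and 17.1 ± 1.26 FPKM with TGF-β (SD, n = 3 each). Its hypoxia-induced paralog NDUFA4L2 had 3.13 ± 0.492 FPKM with TGF-β + CXCL10 and 3.87 ± 0.707 FPKM with TGF-β, so NDUFA4 was the more abundant in both groups. Neither passed the test by counts (log2 differences 0.11 and -0.20, edgeR adjusted p = 0.535 and 0.645).

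Complex II, which oxidises succinate and is the only complex with no mitochondrially encoded subunit, had log2 differences between -0.10 and 0.04 over its 4 genes. SDHA, the flavoprotein, had 68.4, 68.4 and 62.9 CPM in TGF-β + CXCL10 libraries and 70.0, 70.0 and 63.2 CPM in TGF-β libraries. SDHB, the iron-sulfur subunit, had 52.9, 57.3 and 53.5 CPM in TGF-β + CXCL10 libraries and 59.0, 57.8 and 59.0 CPM in TGF-β libraries. SDHB was the one gene of the complex whose groups did not overlap, by a log2 difference of -0.10 that did not pass the test (edgeR adjusted p = 0.443). The membrane anchors SDHC and SDHD had log2 differences of 0.037 and -0.016 (edgeR adjusted p = 0.817 and 0.954), and the sign for SDHC turned to -0.0060 with library totals.

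Complex IV, taken without NDUFA4 (log2 difference 0.11), had the narrowest range among complexes I, III, IV and V. It ran from -0.13 for COX6A1 to 0.065 for COX5A, and 0 of 11 tested subunits passed the threshold in either fit. COX4I1, the common isoform of the largest nuclear subunit, had 103, 107 and 93.2 CPM in TGF-β + CXCL10 libraries and 112, 98.9 and 98.1 CPM in TGF-β libraries, while its partner COX4I2 had no counts. COX6A1 had 68.1, 68.0 and 70.7 CPM in TGF-β + CXCL10 libraries and 80.2, 78.0 and 67.5 CPM in TGF-β libraries (log2 difference -0.13, edgeR adjusted p = 0.402), overlapping through TGF-β replicate 3. COX5B, a zinc-binding subunit, was the one gene of complex IV with groups apart, at 26.4, 26.2 and 25.0 CPM in TGF-β + CXCL10 libraries and 26.6, 29.4 and 27.0 CPM in TGF-β libraries (log2 difference -0.10, edgeR adjusted p = 0.559). The gap between its groups was under 1 CPM. COX5A, COX6B1, COX7A2 and the supercomplex factor COX7A2L overlapped, with log2 differences of 0.065, -0.032, 0.052 and -0.086 (edgeR adjusted p = 0.752, 0.924, 0.828 and 0.576). Per length, COX7A2 stood at 60.9 FPKM with TGF-β + CXCL10 and 60.4 FPKM with TGF-β, while COX7A1 stood at 0.424 FPKM with TGF-β + CXCL10 and 1.89 FPKM with TGF-β, so the ubiquitous isoform was the main one in both groups.

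Complex V held the most abundant members, and 4 of its 5 F1 head subunits had differences above 0, with a median of 0.12. ATP5F1B, the catalytic beta subunit, had 405, 385 and 381 CPM in TGF-β + CXCL10 libraries, against 399, 348 and 329 CPM in TGF-β libraries. Only TGF-β replicate 1 reached the range of the TGF-β + CXCL10 libraries. Its log2 difference was 0.12 (edgeR adjusted p = 0.388, paired 0.09995), and 0.21 without TGF-β replicate 1 (edgeR adjusted p = 0.0247, against 0.0247 to 0.737 over the 12 unpaired settings). ATP5F1A had 312, 290 and 306 CPM in TGF-β + CXCL10 libraries and 296, 261 and 283 CPM in TGF-β libraries (log2 difference 0.11, edgeR adjusted p = 0.370). ATP5F1C, the gamma subunit of the rotor, had 69.7, 72.9 and 72.0 CPM in TGF-β + CXCL10 libraries and 67.3, 62.8 and 62.6 CPM in TGF-β libraries, without overlap (log2 difference 0.16, edgeR adjusted p = 0.246). ATP5F1E, the small epsilon subunit, was the exception by value at a log2 difference of -0.19 (edgeR adjusted p = 0.411), and its groups overlapped.

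In the peripheral stalk, which holds the head still against the rotor, 0 of 4 subunits passed. ATP5PB, subunit b, had 82.0, 88.7 and 86.3 CPM in TGF-β + CXCL10 libraries and 80.6, 77.7 and 75.1 CPM in TGF-β libraries (log2 difference 0.14, edgeR adjusted p = 0.282). ATP5PF, coupling factor F6, had 33.3, 31.0 and 33.8 CPM in TGF-β + CXCL10 libraries and 29.6, 30.0 and 25.6 CPM in TGF-β libraries (log2 difference 0.20, edgeR adjusted p = 0.268). Both were higher in every TGF-β + CXCL10 library than in any TGF-β library, while ATP5PO and ATP5PD overlapped, with log2 differences of -0.12 and 0.012 (edgeR adjusted p = 0.501 and 0.964), the sign for ATP5PD turning with library totals.

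The ring that turns in the membrane is made of subunit c, for which 3 nuclear genes encode the same mature protein. ATP5MC3 had 58.4, 49.1 and 46.9 CPM in TGF-β + CXCL10 replicates 1 to 3, against 49.1, 40.7 and 39.4 CPM in TGF-β replicates 1 to 3. The groups overlapped through TGF-β replicate 1, and the log2 differences within the 3 replicate numbers were 0.25, 0.27 and 0.25. The fitted difference was 0.26 (SE 0.12; edgeR adjusted p = 0.243) without pairing and 0.26 (SE 0.07; edgeR adjusted p = 0.0223) with it, and 5 of 9 paired settings kept the call (adjusted p 0.0111 to 0.122). The paired fits without replicate 2, without replicate 3, with DESeq2 and with limma fitted to FPKM lost it. ATP5MC1 had 9.98, 10.04 and 9.37 CPM in TGF-β + CXCL10 libraries and 10.5, 6.23 and 7.59 CPM in TGF-β libraries, a log2 difference of 0.28 with overlapping groups (edgeR adjusted p = 0.440). ATP5MC2 had 36.1, 33.9 and 37.9 CPM in TGF-β + CXCL10 libraries and 38.2, 37.2 and 33.4 CPM in TGF-β libraries, a log2 difference of -0.012 (edgeR adjusted p = 0.958). Per length, ATP5MC2 was the highest of the 3 in both groups, at 55.8 FPKM with TGF-β + CXCL10 and 57.9 FPKM with TGF-β. ATP5MC3 followed at 48.6 FPKM with TGF-β + CXCL10 and 42.3 FPKM with TGF-β, and ATP5MC1 at 16.1 FPKM with TGF-β + CXCL10 and 14.1 FPKM with TGF-β. The other named membrane subunits, ATP5MG and ATP5MJ, overlapped, with log2 differences of -0.064 and -0.086 (edgeR adjusted p = 0.787 and 0.723).

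Taken as summed counts, the balance between complexes shifted by about 1 percentage point or less. Subunits of complex IV made up 13.1, 13.5 and 13.1% of the CPM of all nuclear structural subunits in TGF-β + CXCL10 replicates 1 to 3, against 14.2, 14.2 and 13.7% in TGF-β replicates 1 to 3. Complex III made up 13.97, 13.7 and 13.5% in TGF-β + CXCL10 libraries, against 13.3, 13.4 and 13.0% in TGF-β libraries. Complex V made up 36.2, 36.1 and 36.9% in TGF-β + CXCL10 libraries, against 35.7, 34.7 and 35.7% in TGF-β libraries. The share of complex IV was thus lower, and those of complexes III and V higher, in every TGF-β + CXCL10 library than in any TGF-β library. Shares of complex I (means of 30.2 ± 0.237% with TGF-β + CXCL10 and 30.5 ± 0.203% with TGF-β) and of complex II (6.49 ± 0.251% with TGF-β + CXCL10 and 6.88 ± 0.334% with TGF-β; SD, n = 3 each) overlapped. Shares add up to a whole, so they cannot move apart from each other, and a few abundant genes such as ATP5F1B weigh most in them. No test was run on them.

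**Figure D4:**
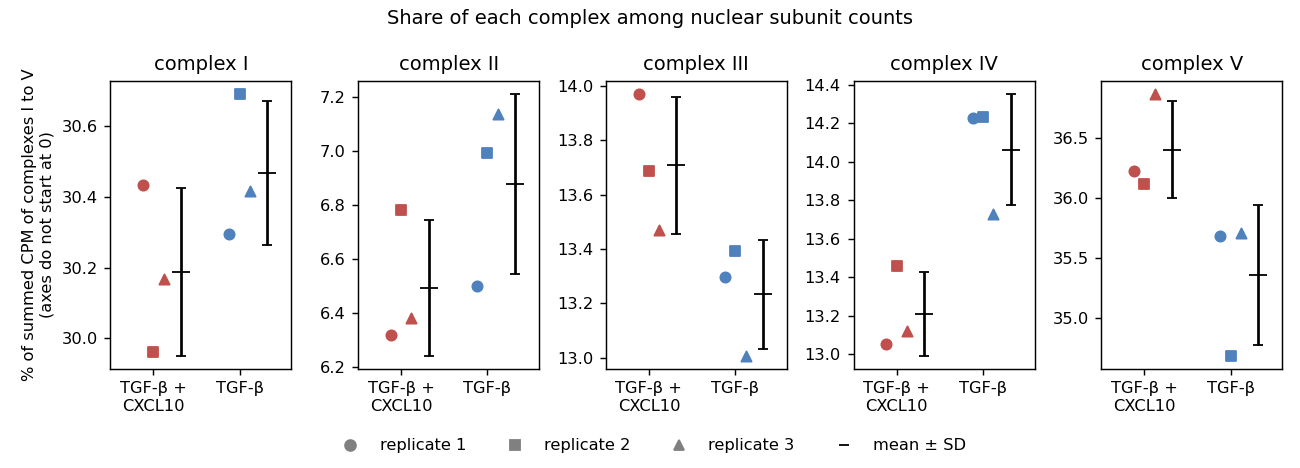
Percent of the summed CPM of all nuclear structural subunits held by each complex, in each library, with the mean and SD of each group (n = 3 each). The axes do not start at 0. Complexes III and V lie higher and complex IV lower in the TGF-β + CXCL10 libraries, and complexes I and II overlap.

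The summed level of all nuclear structural subunits, tested or not, was 3313 ± 73.8 CPM with TGF-β + CXCL10 and 3194 ± 228 CPM with TGF-β (SD, n = 3 each). Summed levels of complex V were 1229, 1192 and 1197 CPM in TGF-β + CXCL10 libraries, against 1226, 1098 and 1065 CPM in TGF-β libraries, and those of complex IV were 443, 444 and 426 CPM in TGF-β + CXCL10 libraries, against 489, 451 and 409 CPM in TGF-β libraries. In both sums the TGF-β libraries were the more spread, with replicate 1 at their top. For 54 of the 78 tested structural subunits (69.2%) replicate 1 had the most CPM of the TGF-β libraries, against 39.1% of all genes tested. Its median log2 distance from the mean of the other TGF-β libraries was 0.14 over these subunits and -0.0017 over all genes.

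Without TGF-β replicate 1, the median log2 differences were 0.066 for complex I, -0.027 for complex II, 0.15 for complex III, 0.030 for complex IV and 0.11 for complex V, with -0.0079 for all genes. Without TGF-β replicate 3 they were -0.022 for complex I, -0.058 for complex II, -0.017 for complex III, -0.11 for complex IV and 0.027 for complex V. The signs for complexes I, III and IV thus turned on which TGF-β library was left out. Without TGF-β replicate 1, the unpaired edgeR test called 6 members higher (6.25%, against 10.7% of all genes) and 0 lower (against 8.61% of all genes): CYCS, UQCRFS1, CYC1, ATP5MC3, ATP5F1B and NDUFA12. Within replicate numbers the median over the structural subunits was -0.035 for number 1, 0.0037 for number 2 and 0.12 for number 3. The part of TGF-β replicate 1 in these results beyond the values given was not tested. Over all members, CPM did not overlap between groups for 8 higher (8.33%, against 11.1% of all genes) and 5 lower (5.21%, against 11.2% of all genes). The higher ones include a second row of NDUFA9. The lower ones include the readthrough NDUFC2-KCTD14, which passed the filter on low counts only through the TGF-β libraries. Among the 78 tested structural subunits alone, 7 were higher and 4 lower without overlap.

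NDUFA7, an accessory subunit of complex I, was present in 2 rows that share its symbol, and the split between them differed from library to library. The gene row had 11.6, 9.01 and 11.4 CPM in TGF-β + CXCL10 replicates 1 to 3, against 7.47, 4.55 and 9.39 CPM in TGF-β replicates 1 to 3. The second row had 0, 2.92 and 0 CPM in TGF-β + CXCL10 replicates 1 to 3, against 2.39, 7.85 and 1.95 CPM in TGF-β replicates 1 to 3. Where the second row was high the gene row was low, as in TGF-β replicate 2. The gene row had a log2 difference of 0.59 (SE 0.24; edgeR adjusted p = 0.218) without pairing and 0.61 (SE 0.17; edgeR adjusted p = 0.0231) with it. This call was kept in 6 of 9 paired settings, and lost without replicate 2, with DESeq2 and with limma, a tool fitted to FPKM. The second row reached the filter on low counts only through the TGF-β libraries, and its levels are given as a description.

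Added together, the rows gave 11.6, 11.9 and 11.4 CPM in TGF-β + CXCL10 libraries, against 9.86, 12.4 and 11.3 CPM in TGF-β libraries, and the log2 ratio of the means was 0.06. The summed groups overlapped. How reads were shared out between overlapping rows is not given in the sources used here, so the paired call of NDUFA7 is uncertain as a difference of the gene.

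**Figure D5:**
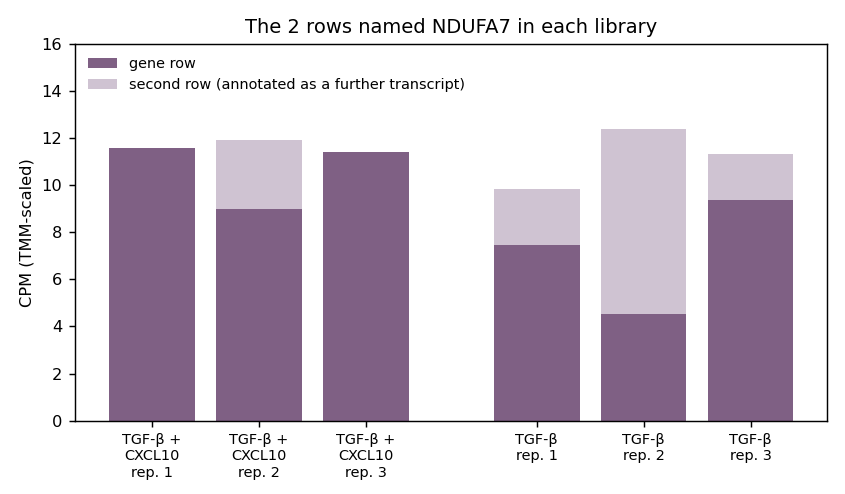
CPM of the 2 rows named NDUFA7, stacked, in each library. The second row adds to all 3 TGF-β libraries and to 1 TGF-β + CXCL10 library, and the stacked bars lie between 9.86 and 12.4 CPM.

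The other row lower in the paired fit, the readthrough NDUFC2-KCTD14, had 0.633, 0.790 and 0 CPM in TGF-β + CXCL10 libraries, against 1.90, 2.12 and 1.80 CPM in TGF-β libraries. Since it passed the filter on low counts only through the TGF-β libraries, its levels too are a description. Added to NDUFC2, an accessory subunit of complex I, it gave 59.3, 54.6 and 52.4 CPM in TGF-β + CXCL10 libraries and 65.5, 50.9 and 46.9 CPM in TGF-β libraries, which overlapped. NDUFA9 also had a second row of similar level, 12.6, 14.2 and 14.8 CPM in TGF-β + CXCL10 libraries and 12.04, 11.6 and 12.2 CPM in TGF-β libraries, and its gene row, at 14.7 ± 2.04 CPM with TGF-β + CXCL10 and 13.9 ± 1.55 CPM with TGF-β, is uncertain for the same reason.

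The rest of the pathway was read from lists of its other genes, beside the same 9.71% of all genes higher and 8.04% lower in the paired fit. The 13 mitochondrially encoded subunits gave 3 genes higher and 0 lower in the paired fit, with a median log2 difference of 0.10. MT-ATP8, a subunit of ATP synthase, had 87.9 ± 4.50 CPM with TGF-β + CXCL10 and 71.4 ± 8.78 CPM with TGF-β (log2 difference 0.30, SE 0.06 with pairing; edgeR adjusted p = 0.00446 paired and 0.161 unpaired). MT-ND2, a membrane core subunit of complex I, had 2195 ± 52.1 CPM with TGF-β + CXCL10 and 1916 ± 155 CPM with TGF-β (log2 difference 0.20, SE 0.05 with pairing; edgeR adjusted p = 0.00871 paired and 0.162 unpaired). All 9 paired settings kept the call of MT-ATP8, while that of MT-ND2 was lost without replicate 2 or replicate 3 and with limma on FPKM. The summed level of these transcripts over that of the nuclear subunits was 12.9, 13.0 and 13.8 in TGF-β + CXCL10 libraries, against 13.2, 12.7 and 13.3 in TGF-β libraries, so that the ratio of the genomes' transcripts overlapped between groups. For these transcripts too, TGF-β replicate 1 lay above the other TGF-β libraries, in 12 of 13. The exception was MT-ATP8, with 69.1, 64.1 and 81.2 CPM in TGF-β replicates 1 to 3.

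Among 16 tested regulators of mitochondrial gene expression, 2 were higher in the paired fit and 0 lower. Differences lay above 0 for 10 of them and below 0 for 6, with a median of 0.14. CPM did not overlap between groups for 2 higher and 3 lower, beside 11.1% and 11.2% of all genes. POLG, the mitochondrial DNA polymerase, had 59.5 ± 3.57 CPM with TGF-β + CXCL10 and 47.9 ± 1.36 CPM with TGF-β (log2 difference 0.31, SE 0.07; edgeR adjusted p = 0.00941 paired and 0.161 unpaired). The means in FPKM lay closer, at 13.8 ± 0.435 with TGF-β + CXCL10 and 13.5 ± 0.618 with TGF-β. POLRMT, the mitochondrial RNA polymerase, had 41.4 ± 3.45 CPM with TGF-β + CXCL10 and 33.0 ± 3.14 CPM with TGF-β (log2 difference 0.33, SE 0.08 with pairing; edgeR adjusted p = 0.0162 paired and 0.161 unpaired). The call of POLG was kept in 7 of 9 paired settings, and lost without replicate 3 and with limma on FPKM. That of POLRMT was kept in 6 of 9, and lost without replicate 2, with DESeq2 and with limma.

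The citric acid cycle list of 13 genes does not hold SDHA, SDHB or SDHD of complex II, whose differences were below 0. All 13 listed genes had differences above 0 with TMM scaling, and 11 with library totals. The median was 0.11 with TMM scaling, and 1 passed in the paired fit, OGDH, a subunit of the 2-oxoglutarate dehydrogenase. It had 142 ± 10.5 CPM with TGF-β + CXCL10 and 119 ± 8.89 CPM with TGF-β (log2 difference 0.26, SE 0.05 with pairing; edgeR adjusted p = 0.00388 paired and 0.161 unpaired). The paired call was lost without replicate 2 and with limma on FPKM. MDH2, malate dehydrogenase, had 136 ± 5.16 CPM with TGF-β + CXCL10 and 123.2 ± 8.87 CPM with TGF-β, a log2 difference of 0.14 that did not pass (edgeR adjusted p = 0.0765 paired and 0.302 unpaired).

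Assembly factors outside the NDUFAF family gave 1 call. FOXRED1, an oxidoreductase needed for complex I assembly, had 16.7 ± 1.11 CPM with TGF-β + CXCL10 and 12.003 ± 1.31 CPM with TGF-β (log2 difference 0.48, SE 0.13 with pairing; edgeR adjusted p = 0.0199 paired and 0.161 unpaired). It was the 1 call among 10 factors of complex I, kept in 5 of 9 paired settings. The call was lost without replicate 1 or replicate 3, with DESeq2 and with limma on FPKM. TMEM126B, a membrane factor of complex I assembly, lay the other way without overlap, with 12.02, 12.5 and 13.9 CPM in TGF-β + CXCL10 libraries and 14.2, 16.3 and 16.2 CPM in TGF-β libraries (log2 difference -0.29; edgeR adjusted p = 0.114 paired and 0.222 unpaired). The paired fit called 0 of 4 factors of complex II, 0 of 6 of complex III, 0 of 27 of complex IV and 0 of 5 tested of complex V, with median log2 differences of -0.069, -0.068, 0.030 and -0.17. In the list of complex V, DMAC2L was lower in every TGF-β + CXCL10 library, at 2.95, 3.95 and 2.47 CPM, than in any TGF-β library, at 4.16, 4.42 and 6.54 CPM, without passing the test (log2 difference -0.69; edgeR adjusted p = 0.110 paired and 0.208 unpaired). ATPAF1, a chaperone of the F1 head, had a log2 difference of -0.22 with overlapping groups (paired edgeR adjusted p = 0.152). In the lists of complexes II and III, SDHAF1, SDHAF3, UQCC2 and UQCC1 overlapped, with log2 differences of -0.27, 0.37, -0.24 and -0.11 (paired edgeR adjusted p = 0.352, 0.438, 0.473 and 0.510). The values nearest to the threshold among complex IV factors were those of CMC2 and COA4, with log2 differences of 0.40 and 0.36 (paired edgeR adjusted p = 0.0532 and 0.0603).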

How the data were processed

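Counts and FPKM per gene came from 1 deposited table of 6 libraries, in which the authors also gave a log2 ratio and p-values for the comparison, per the file headers. Per the labels' protocols, a SMARTer mRNA kit was used. GRCm38 and mm10 stand in the submitters' processing notes, whereas 0 of the 20323 identifiers match the mouse annotation. For aligner, counter and strand setting, nothing was found in the sources used here.

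The fit used edgeR 4.0.16 in R 4.3.3: TMM scaling, a filter on low counts (minimum 10, total 15), the quasi-likelihood test and Benjamini-Hochberg adjustment over all 11970 genes tested, with a threshold of 0.05. CPM are TMM-scaled. Log2 CPM, used for differences within replicate numbers, distances between libraries and the correlations, carry a prior count of 2. Log2 differences from the fits do not carry it. The SE of an edgeR difference was derived from the test, as the absolute log2 difference over the square root of the F statistic. Unpaired was the main design, and the replicate block an alternative. Same-numbered libraries deviated together (correlations 0.330, 0.121 and 0.163, each above 0.1; crossed numbers -0.223 to 0.0825), with the pairing read from the numbers in the titles. DESeq2 1.42.0 and limma 3.58.1 on log2(FPKM + 1) were further alternatives, with the filter, the scaling and each library left out. The code was checked on simulated data.

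Named genes are the 4 tested members with the lowest paired p in each role, the isoforms, and 2 genes from each other list. One gene that this rule names is not reported here. The further rows, the non-overlapping genes and the readthrough were named after their values were seen. Members and lists were chosen with earlier results of these data known. No sequences are shown.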

Additional observations from a re-analysis of the deposited data

How the results depend on the processing

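The counts of calls turned on pairing and on 1 library. Unpaired edgeR called 0 genes, and the replicate block called 1162 higher and 962 lower, with 5 members higher and 2 lower. With the block, RLE factors gave 1216 higher and 968 lower (members 5 and 2), library totals 877 and 1359 (members 4 and 2, without UQCRFS1), no filter 1391 and 1045 (members 5 and 2), DESeq2 686 and 455 (members 1 and 0) and limma on log2(FPKM + 1) 337 and 352 (members 1 and 2). DESeq2 without the block gave 158 higher and 156 lower. Leaving out each replicate gave 0 to 1533 genes higher, 0 to 1313 lower, 0 to 12 members higher and 0 to 2 lower. In unpaired edgeR, genes were called higher only without TGF-β replicate 1 (1302). With the block, 1533 were higher without replicate 1, 680 without replicate 2 and 539 without replicate 3, with 12, 2 and 2 members. The member count was highest where the count of all genes was, and is not read as a result about the members. The higher share fell with library totals, which also moved the median of all genes to -0.050. The cause of these differences was not tested. When a replicate was left out, the median log2 difference lay between -0.022 and 0.066 for complex I, -0.069 and 0.019 for complex II, -0.017 and 0.15 for complex III, -0.11 and 0.059 for complex IV, and 0.016 and 0.13 for complex V, so that only complex V kept its sign. With library totals and with limma the median for complex I was also below 0 (-0.016 and -0.024). Of 61 named tested genes, 44 kept their sign in every setting run. Signs turned for NDUFAF5 with limma (-0.056), SDHC with library totals (-0.0060 and -0.0057 with the block) and ATP5PD with library totals (-0.031) and limma (-0.031), each with and without the block. Also with a replicate left out, log2 differences of single genes ranged from -0.19 to 0.011 for NDUFS8, -0.58 to 0.022 for NDUFAF7, -0.056 to 0.25 for NDUFAF2, -0.010 to 0.081 for SDHC, -0.063 to 0.016 for SDHA, -0.093 to 0.073 for SDHD, -0.027 to 0.14 for COX5A, -0.19 to 0.0092 for ATP5PO, -0.061 to 0.11 for ATP5PD, -0.17 to 0.023 for ATP5MJ, -0.22 to 0.092 for ATP5MG, -0.096 to 0.039 for COX4I1, -0.19 to 0.077 for COX6B1, -0.041 to 0.16 for COX7A2, -0.10 to 0.048 for ATP5MC2 and -0.18 to 0.0055 for UQCC1. Depth limits the low genes: COX7A1, COX6B2 and the readthrough NDUFC2-KCTD14 had few counts in a library.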

Other observations

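The deposited counts and FPKM can be divided to give the gene length that each library's values imply. Among 8428 genes with at least 100 counts in every library, the longest implied length over the 6 libraries exceeded the shortest by a median factor of 1.09, and by more than 1.1 in 3858 genes (45.8%). For the 77 members with this many counts the median factor was 1.02, and 13 (16.9%) passed 1.1. The widest was NDUFA9, at 2.50, with 2.94 ± 1.12 FPKM with TGF-β + CXCL10 and 1.69 ± 0.172 FPKM with TGF-β (SD, n = 3 each), whereas the log2 difference in its counts was 0.084. Differences in FPKM and in counts are therefore not the same measure for such genes.

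In the deposited annotation, 98 of the 109 rows carry the oxidative phosphorylation pathway, which holds 146 rows in all. Among the 86 structural subunits 84 carry it, and the other two are ATP5MJ and ATP5MK. In the authors' deposited table the lowest adjusted p among the members was 0.112, for NDUFC2-KCTD14, and CYCS had a log2 ratio of 0.36 with an adjusted p of 0.149.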
